A study of Mus musculus with 6 samples.

Results

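The genes described here encode the D-type cyclins (Ccnd1, Ccnd2 and Ccnd3), their kinases (Cdk4 and Cdk6), the inhibitors of those kinases (the INK4 genes Cdkn2a, Cdkn2b, Cdkn2c and Cdkn2d) and the retinoblastoma protein (Rb1). They were chosen by name as the members of this module of the cell cycle, and all 10 were found among the 14927 genes of the deposited table. RNA had been sequenced from cultured aortic vascular smooth muscle cells of wild-type C57BL/6 mice, in passages 3 to 7. Every culture was serum deprived for 24 h and then kept in 0.5% FBS for 24 h with vehicle (3 libraries) or with 100 ng/mL recombinant TWEAK (3 libraries). TWEAK belongs to the TNF family of cytokines, and the series' title places it and its receptor Fn14 in restenosis after angioplasty. Libraries carry the numbers 1 to 3 in each group, which the deposited table calls experiments, and the labels do not say whether an experiment was a separate cell isolation or animal.

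In G1 phase, growth signals raise the D-type cyclins, which bind CDK4 or CDK6 and start the phosphorylation of the retinoblastoma protein. That protein holds back the E2F transcription factors, which drive genes of DNA replication, until it is phosphorylated. The INK4 proteins bind CDK4 and CDK6 and keep the cyclins off them. Smooth muscle cells of the healthy artery wall rarely divide, and their division after injury thickens the inner layer of the wall.

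Within experiments, Cdk6, Ccnd1, Cdkn2c and Cdk4 rose with TWEAK and Cdkn2b fell, while Ccnd2, Ccnd3, Cdkn2a, Cdkn2d and Rb1 did not pass the test. The rise was 2.12-fold for Cdk6, 1.59-fold for Ccnd1, 1.32-fold for Cdkn2c and 1.24-fold for Cdk4, and the fall of Cdkn2b was 1.45-fold. The test was limma on log2(normalized count + 1) with the experiment as a block, and a call is a Benjamini-Hochberg adjusted p under 0.05 over all genes. It called 5 of the 10 members, 4 higher and 1 lower, where 13.7% of all genes were called, 8.11% higher and 5.55% lower. The authors' deposited table has the same 5 members under that threshold, where it has 18.1% of all genes. All 10 members moved the same way in the 3 experiments, as did 55.2% of all genes. Unpaired limma called none of the 10 (0.0201% of all genes), 4 of them had an unadjusted p under 0.05 (9.91% of all genes), and DESeq2 with no block called 2, Ccnd1 and Cdk6 (5.06%).

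**Figure D1:**
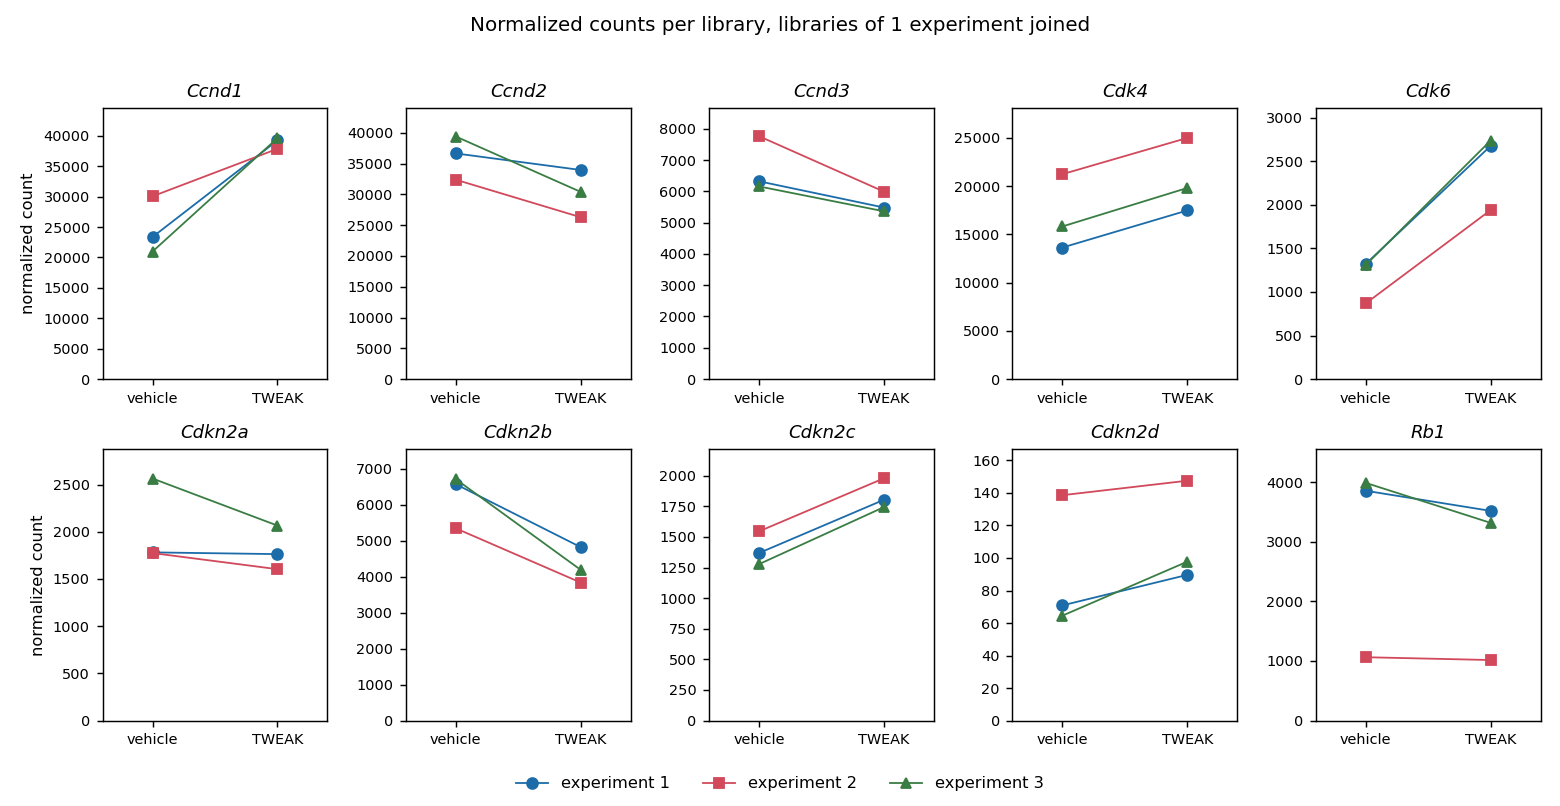
Normalized counts (y axis, from 0) of the 10 members in vehicle and TWEAK libraries (x axis), with a line joining the libraries of 1 experiment. Cdk6 and Ccnd1 rise in every experiment and Cdkn2b falls in every experiment, while Rb1 is near 1063 and 1016 in experiment 2 and at least 3317 in the others.

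Reads summed over the listed genes ranged from 62632273 to 82118717 per library, and the groups did not differ in depth beyond their spread (two-sided exact permutation p = 0.8; 3 against 3 cannot go below 0.1). All 7 listed smooth muscle markers were measured, with a summed level of 318651 to 376208 normalized counts with vehicle, above the sum of every other list below. All 7 fell with TWEAK, to a sum of 189231 to 271231, where 5.55% of all genes fell and 8.11% rose. Of 8 listed macrophage symbols 7 were measured, and the other, Adgre1, is a second symbol of the measured Emr1. These 7 macrophage markers summed to between 2871 and 48264 normalized counts with vehicle and between 3152 and 47687 with TWEAK. The endothelial markers (7 of 7) summed to between 8893 and 59823 with vehicle and between 7975 and 51930 with TWEAK. No macrophage or endothelial marker passed the test, which called 13.7% of all genes. The macrophage sum was highest in experiment 1 and the endothelial sum in experiment 2, in both groups. No measured marker was at 0, but neither was any value of the 14927 genes. A marker above 0, or one absent from the table, therefore does not alone show which cells were present. Of 6 fibroblast markers 2 rose and 1 fell, with sums of 26750 to 72388 and of 33099 to 94381. Of 5 lymphocyte markers only Ptprc was in the table, at 17.0 to 2416 with vehicle and 26.1 to 1801 with TWEAK, and it did not pass. In bulk RNA a change in the share of a cell type cannot be told apart from a change in RNA per cell, and the part of these markers in the results below was not tested.

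Cyclin D1, encoded by Ccnd1, is the D-type cyclin most directly raised by growth signals. Its normalized counts were 23361, 30053 and 20970 with vehicle and 39241, 37857 and 39614 with TWEAK in experiments 1, 2 and 3. The groups did not overlap, and the 3 TWEAK libraries lay closer together than the 3 vehicle libraries. The means were 24795 ± 4708 and 38904 ± 926 normalized counts (SD, n = 3), and the log2 fold change was 0.67 (SE 0.12, 95% interval 0.36 to 0.97, limma adjusted p = 0.0250; 0.181 unpaired). The rise was least in experiment 2, whose vehicle library was the highest: the log2 ratios were 0.75, 0.33 and 0.92. The call was lost without experiment 1 (adjusted p = 0.131) or without experiment 3 (0.0807), with log2 fold changes of 0.63 and 0.54.

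Cyclin D2, encoded by Ccnd2, had 36670, 32400 and 39421 normalized counts with vehicle and 33980, 26300 and 30418 with TWEAK. Each TWEAK library was below the vehicle library of its experiment, but the groups overlapped. The log2 fold change was -0.26 (SE 0.07, 95% interval -0.44 to -0.08, limma adjusted p = 0.0690). Cyclin D3, encoded by Ccnd3, had 6320, 7760 and 6156 normalized counts with vehicle and 5481, 5989 and 5361 with TWEAK. Here the groups did not overlap, and the log2 fold change was also -0.26 (SE 0.07, 95% interval -0.44 to -0.08, adjusted p = 0.0764). These intervals leave out 0 since they are not adjusted for the number of genes tested. Both genes passed without experiment 2 (adjusted p = 0.0148 for Ccnd2 and 0.0303 for Ccnd3) and after a correction for GC content and length (0.0130 and 0.0202). Ccnd2 also passed in edgeR with upper quartile scaling (0.0266).

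The 2 catalytic partners both rose. Cdk6 had 1320, 868 and 1309 normalized counts with vehicle and 2676, 1939 and 2738 with TWEAK. Every TWEAK library was above every vehicle library, and experiment 2 was the lowest in both groups. The log2 fold change was 1.08 (SE 0.08, 95% interval 0.89 to 1.27, limma adjusted p = 0.00335; 0.168 unpaired), and the log2 ratios of 1.02, 1.16 and 1.06 were close together. By limma's p, Cdk6 ranked 62nd of all genes, and it was the only member called without experiment 1 and without experiment 3. Cdk4 had 13630, 21237 and 15817 normalized counts with vehicle and 17476, 24993 and 19807 with TWEAK. The groups overlapped, because experiment 2 was high under both conditions, yet each TWEAK library exceeded its own vehicle library. Its log2 fold change was 0.31 (SE 0.06, 95% interval 0.15 to 0.46, adjusted p = 0.0307; 0.832 unpaired). Without experiment 1 or experiment 3 the call of Cdk4 was lost (adjusted p = 0.131 and 0.208).

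The promoters of the 2 kinase genes are shown because both genes rose. Myc, whose protein binds E-boxes, also rose, by 0.70 on the log2 scale (SE 0.10, limma adjusted p = 0.0131). Myc was chosen after its value was seen, and its part in the rise of Cdk4 and Cdk6 was not tested. RefSeq windows of 300 bases, from 250 before to 50 after an annotated start on GRCm38.p6, matched 7 of the 10 members. Ccnd1, Ccnd2 and Rb1 are named only. Both strands were searched for the E-box CACGTG, the E2F-type site TTTNNCGC, the GC box GGGCGG, the AP-1 site TGANTCA and a loose NF-kB site (GGG and CC with any 5 bases between). Capitals mark the first 3 of these in either orientation, sequences run 5′ to 3′ on the strand of the gene, and a match is a description and not evidence of binding. Cdk4 lies at chr10:127063285-127063584 on the plus strand and Cdk6 at chr5:3343643-3343942 on the plus strand.
Cdk4 promoter: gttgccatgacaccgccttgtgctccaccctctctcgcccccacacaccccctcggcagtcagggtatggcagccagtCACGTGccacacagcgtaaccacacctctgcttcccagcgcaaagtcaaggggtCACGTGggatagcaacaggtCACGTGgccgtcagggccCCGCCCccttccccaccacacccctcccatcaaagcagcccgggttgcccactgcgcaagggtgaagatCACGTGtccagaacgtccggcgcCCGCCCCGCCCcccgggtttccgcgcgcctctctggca
Cdk6 promoter: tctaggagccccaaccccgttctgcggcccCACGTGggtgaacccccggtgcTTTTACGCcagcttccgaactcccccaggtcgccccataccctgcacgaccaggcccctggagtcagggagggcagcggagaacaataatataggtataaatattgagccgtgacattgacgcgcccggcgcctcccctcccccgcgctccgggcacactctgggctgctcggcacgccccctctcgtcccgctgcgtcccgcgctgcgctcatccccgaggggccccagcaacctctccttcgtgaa

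The Cdk4 window held 4 E-boxes, at positions -172, -118, -98 and -11 relative to the annotated start. Of 32851 RefSeq windows, 7.15% held at least 1 E-box and 8 windows, or 0.0244%, held at least 4. The Cdk4 window also held 3 GC boxes. The Cdk6 window held 1 E-box at -220 and, at -198, 1 match to the E2F-type letters, which take any base at N. These letters were found in 5.17% of windows, and the middle bases of the Cdk6 match were TA. The NF-kB letters occurred 2 times in Cdk4 and 5 times in Cdk6, some of them overlapping a GC box, an E-box or each other. In Cdk6 the match at -215 was counted on both strands. At least 1 match was found in 50.8% of windows, and the share with more was not counted. The AP-1 letters, found in 7.81% of windows, were in neither.

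**Figure D2:**
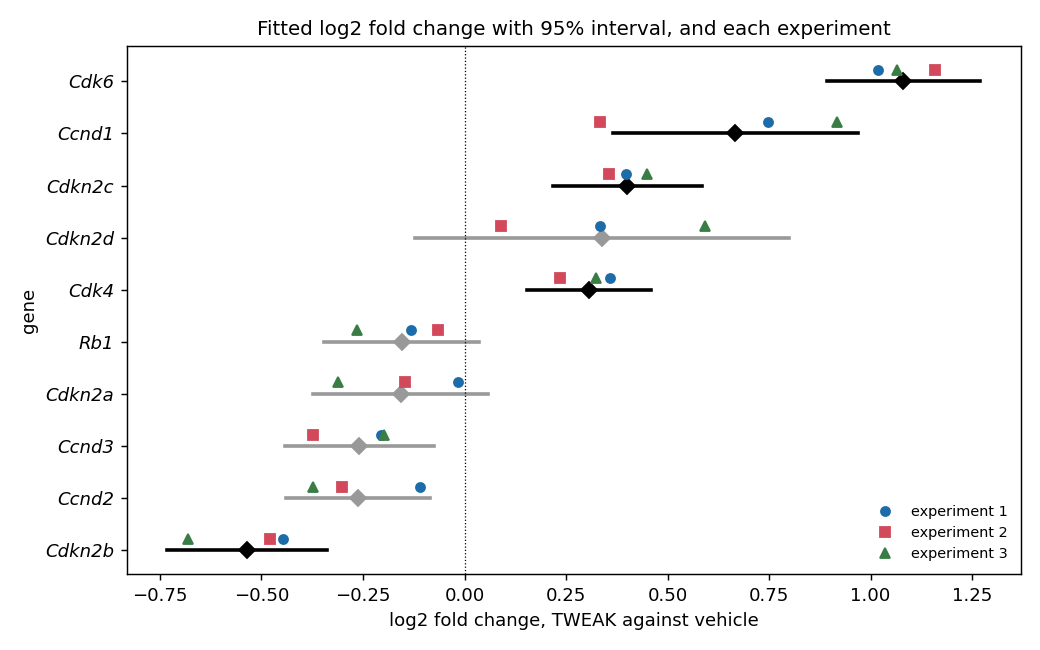
Fitted log2 fold changes of TWEAK against vehicle (x axis) for the 10 members (y axis), as diamonds with 95% intervals from limma, black where the adjusted p was under 0.05 and grey otherwise, with the log2 ratio of each experiment above. Cdk6 is highest at 1.08 and Cdkn2b lowest at -0.53, and the 3 experiments of each gene lie on 1 side of 0.

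Among the INK4 inhibitors, Cdkn2b and Cdkn2c moved in opposite directions. Cdkn2b encodes p15, an inhibitor induced by TGF-beta in many cell types. It had 6573, 5345 and 6713 normalized counts with vehicle and 4822, 3837 and 4190 with TWEAK. The groups did not overlap, and experiment 2 was lowest in both. The log2 fold change was -0.53 (SE 0.08, 95% interval -0.73 to -0.34, limma adjusted p = 0.0127; 0.279 unpaired), with log2 ratios of -0.45, -0.48 and -0.68. Cdkn2c encodes p18 and had 1369, 1546 and 1278 normalized counts with vehicle and 1803, 1979 and 1744 with TWEAK. These groups did not overlap either, and the log2 ratios of 0.40, 0.36 and 0.45 were close together. Its log2 fold change was 0.40 (SE 0.07, 95% interval 0.22 to 0.58, adjusted p = 0.0245; 0.369 unpaired). Both calls were lost without experiment 1 (adjusted p = 0.0653 for Cdkn2b and 0.118 for Cdkn2c) and without experiment 3 (0.117 and 0.220). In all, the groups did not overlap for 5 members, 3 higher and 2 lower with TWEAK, where this held for 16.0% of all genes (8.60% higher and 7.42% lower).

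The promoter windows of these 2 inhibitors are shown to set the gene that fell beside the one that rose. Cdkn2b lies at chr4:89310983-89311282 and the upstream window of Cdkn2c at chr4:109666707-109667006, both on the minus strand of GRCm38.p6 in RefSeq, with the same capitals.
Cdkn2b promoter: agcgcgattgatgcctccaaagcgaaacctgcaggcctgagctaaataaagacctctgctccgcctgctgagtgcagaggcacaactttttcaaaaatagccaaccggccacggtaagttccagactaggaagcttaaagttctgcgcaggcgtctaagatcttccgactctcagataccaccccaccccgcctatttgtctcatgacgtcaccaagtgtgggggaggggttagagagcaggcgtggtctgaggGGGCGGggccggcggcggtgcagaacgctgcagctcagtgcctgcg
Cdkn2c promoter: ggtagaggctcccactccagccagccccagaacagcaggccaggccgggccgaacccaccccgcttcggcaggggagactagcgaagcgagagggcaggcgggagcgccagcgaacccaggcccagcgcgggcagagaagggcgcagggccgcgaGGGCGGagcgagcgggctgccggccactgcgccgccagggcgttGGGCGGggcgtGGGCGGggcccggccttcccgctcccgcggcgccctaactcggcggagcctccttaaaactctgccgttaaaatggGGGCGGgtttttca

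The Cdkn2b window held 1 GC box at position 4, which overlapped an NF-kB match, and the Cdkn2c window held 4 GC boxes and 5 NF-kB matches, at -204, -203, -40, -39 and -35, the last 3 of them overlapping a GC box. At least 1 GC box was found in 35.7% of RefSeq windows. Neither window held an E2F-type site, an E-box or an AP-1 site, though a second, downstream RefSeq window of Cdkn2c held 1 E-box. The other 2 INK4 genes did not pass. Cdkn2a is the neighbour of Cdkn2b and encodes both p16 and, from another first exon and reading frame, ARF, which a count per gene cannot separate. It had 1782, 1775 and 2565 normalized counts with vehicle and 1763, 1604 and 2066 with TWEAK. Experiment 3 was highest in both groups, the groups overlapped, and the log2 fold change was -0.16 (SE 0.09, 95% interval -0.37 to 0.06, adjusted p = 0.279). Mtap, the next gene along in the RefSeq order and chosen after its value was seen, was at 0.17 (SE 0.07, adjusted p = 0.196). Cdkn2d, which encodes p19 INK4d, had the lowest counts, 70.8, 139 and 64.5 normalized counts with vehicle and 89.6, 148 and 97.7 with TWEAK. Its log2 fold change of 0.34 had a wide interval, from -0.12 to 0.80 (SE 0.18, adjusted p = 0.277).

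Rb1 encodes the protein that CDK4 and CDK6 phosphorylate. It had 3856, 1063 and 3989 normalized counts with vehicle and 3518, 1016 and 3317 with TWEAK. Both libraries of experiment 2 stood far below the others, and the difference between treatments was small beside that gap. The log2 fold change was -0.15 (SE 0.08, 95% interval -0.34 to 0.04, limma adjusted p = 0.238), and after the correction for GC content and length it was -0.37 and passed (adjusted p = 0.0158). Rb1 was among 5 members that differed between experiments (limma adjusted p = 0.000774), where 48.6% of all genes did. The others were Cdk4 (0.00695), Cdk6 (0.0109), Cdkn2a (0.0336) and Cdkn2d (0.0399).

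Averaged over both treatments, Rb1 in experiment 2 was 3.52-fold lower than in experiments 1 and 3, and 2.83% of genes lay as low or lower. Over all genes with a known GC content, the difference of experiment 2 from the others varied with that content. Of 5 equal bins of genes by GC content, the lowest (29.1% to 44.3%) holds Rb1 at 41.2%. There the median difference of experiment 2 from the others was -0.96 on the log2 scale, and in the bin with the highest GC content it was 0.24. After the correction, which takes out GC content and length together, Rb1 was 1.75-fold lower, with 6.51% of genes as low or lower. Cdk6 went from -0.54 to 0.24 and Cdkn2b from -0.27 to -0.65. Of the neighbours of Rb1 in the RefSeq order, chosen after their values were seen, Lpar6 also differed between experiments (limma adjusted p = 0.0328) and was lowest in experiment 2 in both groups, while Itm2b (0.973) and Rcbtb2 did not pass. Rcbtb2 had 5408, 4004 and 4909 normalized counts with vehicle and 5397, 4801 and 5167 with TWEAK, so it too was lowest in experiment 2 in both groups. The part of library composition in the levels of experiment 2 was not tested further.

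**Figure D3:**
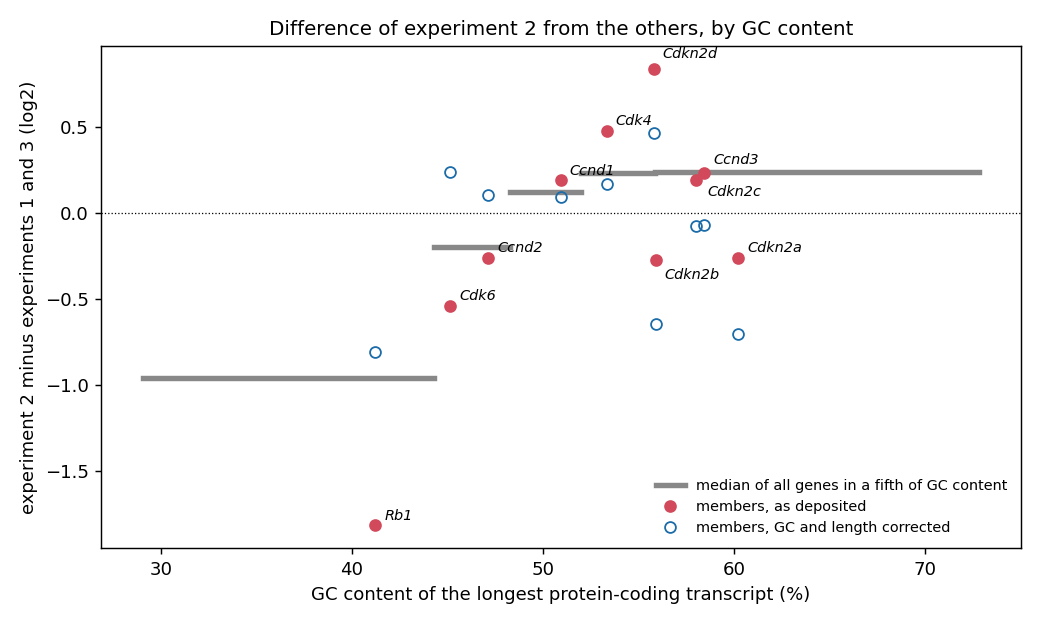
Difference of experiment 2 from the mean of experiments 1 and 3 on the log2 scale (y axis) against the GC content of the longest protein-coding transcript (x axis). Filled points are the 10 members as deposited, open points the same members after the GC and length correction, and bars the median of all genes in each of 5 bins of GC content. Rb1 lies lowest at -1.82 and moves to -0.81 with the correction.

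Ratios within a library do not depend on how libraries were scaled, and only their change is read here, since they are not corrected for transcript length. The ratio of Ccnd1 to Ccnd2 normalized counts was 0.637, 0.928 and 0.532 with vehicle and 1.15, 1.44 and 1.30 with TWEAK. It rose in every experiment. That change was 1.90-fold (0.93 ± 0.33 on the log2 scale, SD of 3 experiments), and the groups did not overlap. The ratio of Ccnd1 to Ccnd3 went from 3.66 ± 0.235 to 6.96 ± 0.562 (SD, n = 3), also 1.90-fold. The ratio of Cdkn2b to Cdkn2c went from 4.50 ± 0.933 to 2.34 ± 0.371, a 1.91-fold fall. The ratio of Cdk6 to Cdk4 was 0.0969, 0.0409 and 0.0828 with vehicle and 0.153, 0.0776 and 0.138 with TWEAK. It rose 1.71-fold within experiments, but the groups overlapped because experiment 2 was low in both. The two-sided exact permutation p was 0.1 for the first 3 ratios, the smallest possible, and 0.3 for Cdk6 to Cdk4, or 0.133 and 0.3 adjusted over the 4 ratios. Flipping signs within experiments gave an exact p = 0.25 for each, the smallest that 3 pairs allow.

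**Figure D4:**
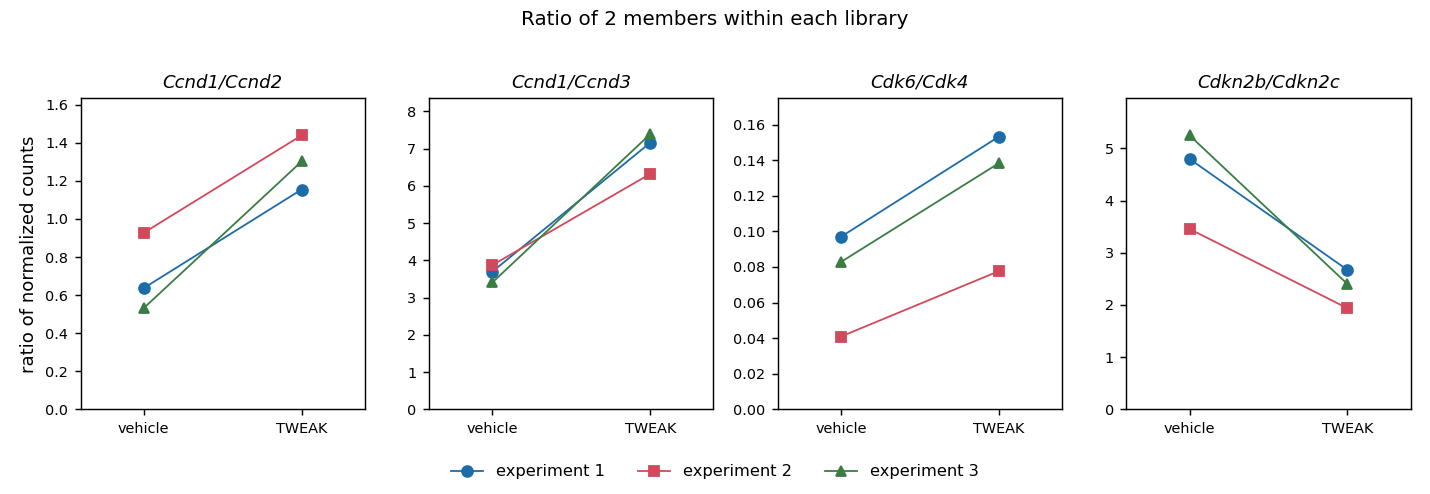
Ratio of the normalized counts of 2 members (y axis, from 0, not corrected for length) in each vehicle and TWEAK library (x axis), with a line joining the libraries of 1 experiment. The ratio of Ccnd1 to Ccnd2 rises in every experiment, and that of Cdkn2b to Cdkn2c falls in every experiment.

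For levels between genes, normalized counts were divided by the length in kb of the longest protein-coding transcript in GENCODE vM21. With vehicle the order was Cdk4 (8229 ± 1908 normalized counts per kb, SD, n = 3), Ccnd1 (6630 ± 1259), Ccnd2 (5713 ± 559), Cdkn2b (4468 ± 541), Ccnd3 (3192 ± 418) and Cdkn2a (2280 ± 507). Rb1 (638 ± 355), Cdkn2c (565 ± 55.1), Cdk6 (101 ± 22.4) and Cdkn2d (64.2 ± 28.9) followed. Libraries overlapped between neighbours in this order for Cdk4 and Ccnd1, for Ccnd1 and Ccnd2, for Rb1 and Cdkn2c and for Cdk6 and Cdkn2d. With TWEAK, Ccnd1 (10402 ± 248) and Cdk4 (10112 ± 1874) led and overlapped, and Ccnd2 (4776 ± 607) lay below both in every library. By these lengths Ccnd1 made up 42.4% ± 4.93 of the D-type cyclin level with vehicle and 58.4% ± 1.30 with TWEAK, and Cdkn2b 60.6% ± 3.45 and 51.9% ± 3.31 of the INK4 level (SD, n = 3). The order rests on the transcript chosen, which the sources do not give: with the median length of the protein-coding transcripts, Ccnd2 came first, above Cdk4, Ccnd3 and Ccnd1. The shares rest on it too, since by the median lengths Ccnd1 made up 13.2% ± 2.84 of the D-type cyclin level with vehicle and 22.2% ± 1.39 with TWEAK, and Cdkn2b 58.3% ± 3.43 and 49.0% ± 3.29 of the INK4 level (SD, n = 3). These lengths were tried after seeing the data. The longest Cdk6 transcript is 11.5 kb and the median 0.697 kb.

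The genes that meet the module are given by lists, which were chosen with earlier results of these data known. The genes named without having passed were chosen after their values were seen. Of 18 E2F target genes, all 18 rose, where 8.11% of all genes rose and 5.55% fell. The median change of these targets was 1.03 on the log2 scale, against 0.02 over all genes. Among them Ccna2, the S-phase cyclin A2, rose by 1.23 (SE 0.08, limma adjusted p = 0.00317) and Mcm6, a subunit of the replicative helicase, by 0.96 (SE 0.07, 0.00340). Beside the same shares of all genes, 5 of 12 pocket protein and E2F genes rose and none fell, with a median of 0.32. The repressive factors E2f8 (1.35, SE 0.18) and E2f7 (1.20, SE 0.12) and the pocket protein gene Rbl1, which encodes p107 (1.04, SE 0.13), were among these, while E2f1 was at -0.06 (adjusted p = 0.646). Of 10 genes of cyclin E, CDK2 and the CIP/KIP inhibitors, 5 rose and none fell, with a median of 0.34, again beside the same shares. Ccne2 (1.13, SE 0.10) and Ccne1 (0.69, SE 0.08), the cyclins that act after the D-type cyclins, rose with Cdc25a (0.53, SE 0.09), a phosphatase that activates CDK2. The 3 CIP/KIP genes Cdkn1a, Cdkn1b and Cdkn1c did not pass, with log2 fold changes from -0.27 to -0.12.

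Another list holds genes that assemble, activate or degrade the cyclin D kinases. Of its 13 genes, among them the activating kinase subunits Cdk7, Ccnh and Mnat1 and the cyclin D degradation adaptor Ambra1, none rose and 1 fell, and their median change was -0.09 on the log2 scale. Over all genes 8.11% rose and 5.55% fell, so that this count is near the background. The gene that fell was Cryab, a small heat shock protein, with 21900 ± 1448 normalized counts under vehicle and 14569 ± 2142 under TWEAK (SD, n = 3), a log2 fold change of -0.60 (SE 0.08, limma adjusted p = 0.00862). None of 6 measured relatives of the module passed, and the most abundant were Ccny (-0.08, SE 0.09) and Cdk14 (-0.13, SE 0.12). For Cdkn3, in the same list, the value was 0.37 (adjusted p = 0.0858).

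Of 20 regulators of the INK4 genes, 4 rose and 2 fell, with a median of 0.22, where 8.11% of all genes rose, 5.55% fell and the median was 0.02. The Polycomb genes Cbx7 (0.91, SE 0.11) and Ezh2 (0.71, SE 0.08), whose proteins silence the Cdkn2a and Cdkn2b locus in other settings, rose with Cbx2 and with Junb (0.45, SE 0.07). Bmi1, of the same complex as Cbx7, did not pass (0.07, SE 0.15, adjusted p = 0.785). Id1, an inhibitor of basic helix-loop-helix factors, fell by 0.89 (SE 0.15, adjusted p = 0.0204) and Jdp2, a repressor of AP-1, by 0.32 (SE 0.07, 0.0453). In the ARF branch, Trp53, which encodes p53, rose by 0.76 (SE 0.10, adjusted p = 0.0102) and Mdm2, its ubiquitin ligase, by 0.36 (SE 0.07, 0.0267), and Mdm4 did not pass. Of 13 genes known to induce Ccnd1, 3 rose and 1 fell, with a median of 0.15, beside the same shares and median over all genes. Nfkb2 (1.81, SE 0.07) and Relb (0.95, SE 0.09), both of the non-canonical NF-kB pathway, rose with Myc, and Fos, a subunit of AP-1, fell by 0.62 (SE 0.08). Rela (0.15), Ctnnb1 (0.00267) and Egr1 (-0.03) did not pass.

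**Figure D5:**
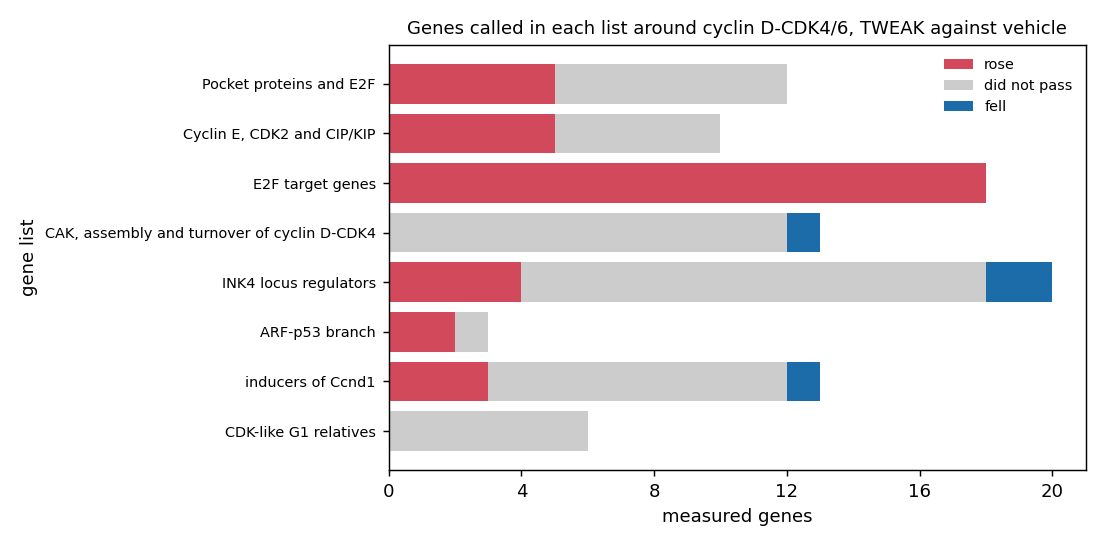
Number of measured genes (x axis) in each of the 8 lists around the module (y axis) that rose, did not pass or fell with TWEAK at a limma adjusted p under 0.05. All 18 E2F target genes rose, and none of the 13 genes of assembly and turnover did, where 8.11% of all genes rose.

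The search for genes of similar pattern covered 12010 other genes with a mean of at least 100, leaving out symbols of unnamed gene models (Gm or Rik). Among them, the 3 genes nearest to each called member were taken by Pearson's r over the 6 libraries. For Cdk6 they were Dclk1, a doublecortin-like kinase (r = 0.998), Dtl, a substrate receptor of a ubiquitin ligase in S phase (0.996), and Kif23, a kinesin of cytokinesis (0.995). For Ccnd1 they were Tubgcp6 (0.997), Wnt5b (0.994) and Cdc25a (0.993), and for Cdkn2b they were Sema3f (0.997), Exoc3 (0.997) and Tg (0.997). For Cdk4 they were Hyal2 (0.998), Znrf1 (0.998) and Upp1 (0.998), and for Cdkn2c they were Stk35 (0.997), Traip (0.996) and Clhc1 (0.996). The 6 points share their treatments, experiments and size factors, and between 88 and 361 genes exceeded r = 0.95 for each member. A high r is neither a call nor a change of like size. Tubgcp6 (limma adjusted p = 0.0588), Wnt5b (0.136), Exoc3 (0.0812), Znrf1 (0.0615) and Stk35 (0.0542) did not pass, and the other genes named here did. Upp1 rose by 1.30 on the log2 scale, beside 0.31 for Cdk4.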

How the data were processed

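Total RNA of 6 cultures was sequenced with a stranded Illumina kit, per the design text. Per the file headers, the authors deposited 1 table with normalized counts per library (a signal) and their mean, log2 fold changes with standard errors, Wald statistics (a score), p-values and adjusted p-values. The submitters' processing notes name DESeq2, with no version. The genome build, annotation, aligner, counter and strand setting were not given in the sources used here, so reads of overlapping genes cannot be separated.

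In every column 100% of values were whole multiples of 1 read within 0.01, so reads were recovered. Chi-square per degree of freedom between libraries was at least 90.7, so none was a duplicate. All 14927 genes passed a mean of at least 1. Genes were tested with limma 3.58.1 (R 4.3.3), using an intensity trend and robust empirical Bayes. The experiment was a block because libraries of the same number deviated together from their group means (correlations across genes 0.879, 0.868 and 0.734; different numbers -0.760 to -0.126), and the number comes from the column headers. Deviations within a group sum to 0, so positive values for the same number force those for different numbers below 0 on balance. Only the values for the same number are therefore read. P-values measure how the difference varied among 3 experiments, a spread that may be technical. Each fold change is a difference of log2(normalized count + 1), which understates changes of low genes. Single values were compared with exact permutation tests in SciPy 1.17.1. The steps were tested on simulated reads.

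Members and lists were chosen with earlier results of these data known. Genes named were the 10 members, up to 3 called genes of each list by adjusted p or else the 2 most abundant, and the 3 nearest in pattern to each called member. A gene that this rule names is not reported here. Other genes named were chosen after their values were seen. Alternatives used edgeR 4.0.16, DESeq2 1.42.0, limma-voom, other pseudocounts, filters and scalings, no block, and a correction for GC content and length (mgcv 1.9.3) on the 14798 genes (99.1%) matched to GENCODE vM21 transcripts.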

Additional observations from a re-analysis of the deposited data

How the results depend on the processing

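All 10 members kept their direction under the 15 alternatives tried. For some this was fixed beforehand: dropping the block or raising the filter to a mean of at least 100 left limma's fold changes unchanged. Leaving out 1 experiment could not reverse a member that moved the same way in all 3. Of the 150 member values so obtained, 128 stayed on the same side of the threshold, 16 no longer passed and 6 newly passed. Leaving the replicate number out as a block reduced the calls from 2039 genes and 5 members to 3 genes and 0 members with limma, and to 752 genes and 2 members with DESeq2, an alternative chosen after seeing the data. Quantile normalization gave 3132 genes. The GC and length correction with the block gave 4301 genes, 1829 higher and 2472 lower against 1210 and 829, and 8 members, adding Ccnd2, Ccnd3 and Rb1; 1999 of the 2039 genes remained. Leaving out 1 experiment at a time gave 666 to 3902 genes and 1 to 7 members, the lowest without experiment 3 (666) or 1 (695) and the highest without experiment 2. The other blocked alternatives (pseudocounts of 0.5 and 10, a mean of at least 100, cyclic loess, edgeR, DESeq2 and limma-voom) gave 1744 to 2966 genes and 5 or 6 members. A run with no filter is the same as the main run, since all genes passed it. The cause of these differences was not tested. The ratios within libraries kept their direction with other pseudocounts and with 1 experiment left out, the only alternatives run for them. Each ratio moved the same way in all 3 experiments, so leaving 1 out could not reverse it. Depth does not limit the abundant members; Cdkn2d, at 56 to 164 reads per library, has the widest interval.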
